A study of Rattus norvegicus with 15 samples.

Results

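RNA sequencing of H2O2-injured rat astrocytes yielded 35 genes, of 32552 counted, that had no read in any control or H2O2 library and reads in every library of a treatment with whole mitochondria. A gene was taken when its count was 0 in all 3 control and all 3 H2O2 libraries and at least 1 in all 3 libraries treated with unmodified mitochondria or all 3 treated with MitoCoat. Of 10157 genes with 0 counts in control and H2O2, 55 met this condition. The 20 that lie in 3 dense intervals were set apart (chr1:79122608-79481865, chr17:3210130-4167411 and chr17:38710432-39575720, with 6, 8 and 6 genes, Rnor6.0), which left the 35 described here, scattered over 15 chromosomes. Because the counts of control, H2O2, mitochondria and MitoCoat libraries chose these genes, those counts are given as a description and carry no test.

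The cells were primary rat cortical astrocytes from newborn Sprague Dawley pups, in 5 groups of 3 RNA samples. Control wells received vehicle and the other 4 groups 100 µM H2O2 for 30 min, and RNA was collected 6 h after treatments that were given 24 h later. The mitochondria group received unmodified mitochondria isolated from cryopreserved rat placenta. The MitoCoat group received such mitochondria coated with DOTAP/DOPE lipids, and the MitoCoat-mRNA group received RNA extracted from the mitochondria-enriched fraction and encapsulated in the same lipids, without mitochondria. Mitochondria were used at either of 2 concentrations in the study, and which of them the sequenced wells received is not given in the sources used here. The encapsulated RNA was dosed by its own mass, and the study does not state that the groups received equal amounts of RNA. The study calls the 3 samples of a group biological replicates, without saying whether each came from its own astrocyte preparation, and p-values measure the spread between them. The sample descriptions speak of RNA from mitochondria-enriched fractions, whereas the study describes astrocyte RNA, which was assumed here.

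A mitochondrial pellet prepared by centrifugation holds more than mitochondria. Most mitochondrial proteins are encoded in the nucleus, part of their messenger RNA sits at the outer membrane, and fragments of endoplasmic reticulum with bound ribosomes sediment with the organelle. The rodent placenta expresses large families of clustered genes that other tissues hardly express, among them prolactin-related hormones, placental cathepsins and pregnancy-specific glycoproteins. The files list genes by Ensembl identifier without symbols, and 0 of the 32552 could be paired with a symbol through the reference table used. Whether known placental genes are among the 35, and whether the libraries hold the markers of astrocytes or of other cells, was therefore not analysed here, and genes are given by position. RNA brought in with the mitochondria and RNA made by the astrocytes cannot be told apart in these libraries, nor can fewer cells of a type and less RNA per cell.

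Total counts per library ranged from 35315654 to 46778663. Both mates of a read pair were counted, so that 93.4% to 97.7% of the values from 1 to 20 in a library were even, and a count of 2 stands for a single pair. Among the 35 genes, 173 values above 0 occurred in the 9 treated libraries, of which 49.1% were exactly 2. The depth behind most of the values below is thus 1 to a few read pairs, and intervals and floors given here cover counting error only.

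Only 4 of the 35 genes had at least 5 counts in all 3 libraries of a treatment. The gene with the most reads was ENSRNOG00000017185 (chr17:42771526-42777186, minus strand, 5 exons, 833 exonic bases). It had 72, 62 and 16 counts in mitochondria libraries 1 to 3, 156, 148 and 48 in MitoCoat libraries 1 to 3, and 0 in all 9 libraries of the other groups. Every MitoCoat library was above the mitochondria library of the same number, and library 3 was the lowest of both treatments. Its mean level was 1.21 ± 0.784 CPM (counts per 1000000 counts) with mitochondria and 2.82 ± 1.40 with MitoCoat (SD, n = 3).

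The second gene, ENSRNOG00000008563 (chr8:41442899-41445722, minus strand, 4 exons, 590 exonic bases), had 43, 36 and 40 counts with mitochondria and 102, 80 and 34 with MitoCoat, and 0 elsewhere. Here the mitochondria libraries lay close together and the fall in library 3 was seen with MitoCoat alone, so that the groups overlapped. Mean levels were 0.924 ± 0.157 CPM with mitochondria and 1.73 ± 0.783 CPM with MitoCoat (SD, n = 3). It stands by itself in the genome: of 17 genes within 300 kb, 16 had 0 counts in the control, H2O2, mitochondria and MitoCoat libraries.

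The third gene (chr17:42705734-42710574, minus strand, 5 exons, 1148 exonic bases) is a neighbour of the first, 61.0 kb away on the same strand. It had 14, 37 and 4 counts with mitochondria, 82, 85 and 12 with MitoCoat, and 2 counts, or 1 read pair, in MitoCoat-mRNA library 1. Mean levels were 0.433 ± 0.391 and 1.43 ± 0.986 CPM. The pair lies 3.13 and 3.20 Mb beyond the nearer of the chromosome 17 intervals. Of the 12 genes within 300 kb of ENSRNOG00000017185, 10 had 0 counts in control and H2O2 and 4 of these had counts with mitochondria or MitoCoat.

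The fourth gene (chr4:78563625-78567241, plus strand, 4 exons, 2274 exonic bases) had 4, 8 and 2 counts with mitochondria, 36, 34 and 6 with MitoCoat, and 0 with MitoCoat-mRNA. Its mean levels were 0.110 ± 0.0718 and 0.608 ± 0.396 CPM. A gene 48.0 kb away (chr4:78496043-78515584) was looked at after its values had been seen. It had 10, 2 and 0 counts in the control libraries and so is no member, 0 in the 3 H2O2 libraries, 36, 31 and 8 with mitochondria, 67, 77 and 22 with MitoCoat and 0 with MitoCoat-mRNA. Both chromosome 4 genes were lowest in library 3 of each treatment.

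**Figure D1:**
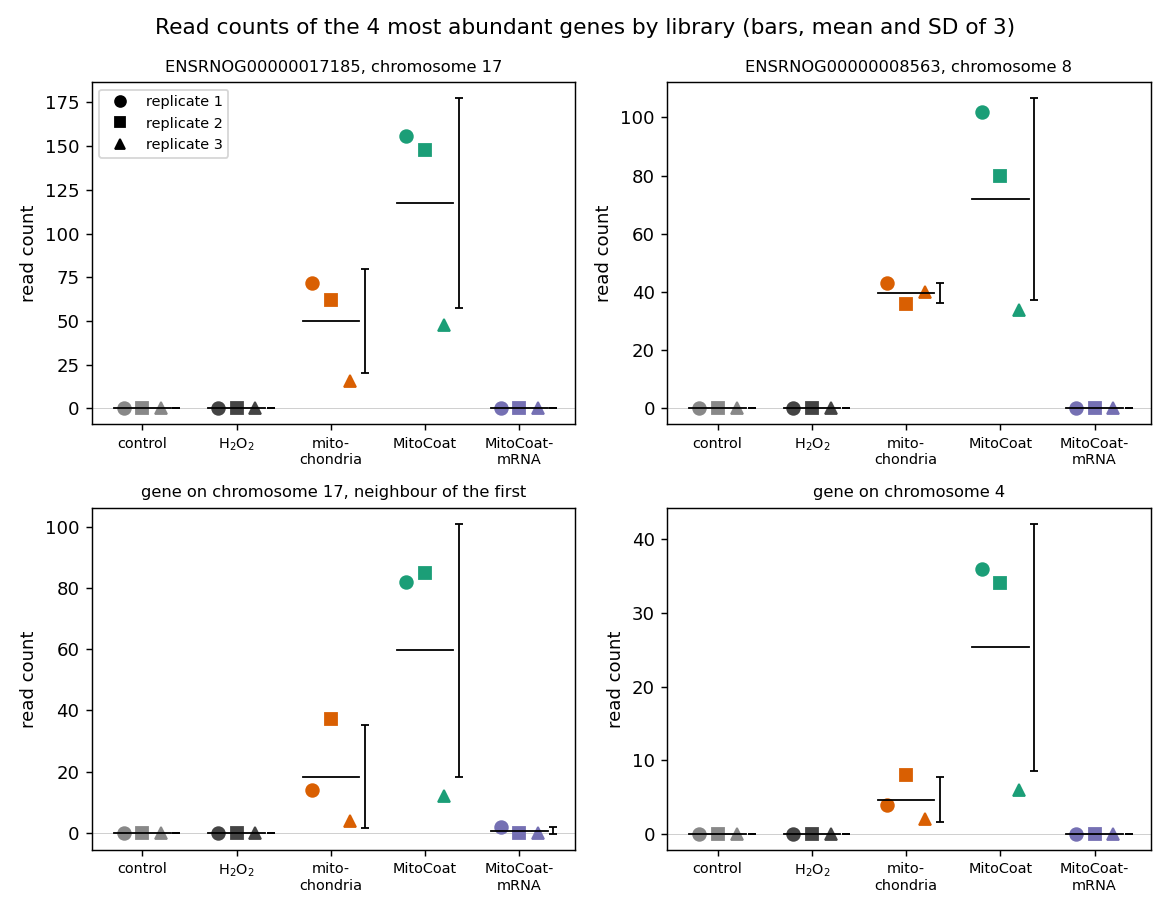
Read counts (y axis) of the 4 genes with at least 5 counts in all 3 libraries of a treatment, in the 5 groups (x axis), with symbols for replicates 1 to 3 and bars for mean and SD of 3. All control and H2O2 values are 0, MitoCoat-mRNA holds a single value of 2, and replicate 3 of MitoCoat is the lowest of its group for all 4 genes.

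Levels were also taken per length of exon, to set these genes beside others. ENSRNOG00000017185 stood at 1.45 CPM per kb of exon with mitochondria and 3.39 with MitoCoat, and ENSRNOG00000008563 at 1.57 and 2.93. The median over all genes with counts was 2.89 and 2.82 CPM per kb. Of the genes with counts, 42.7% and 43.6% lay below these 2 with mitochondria, and 52.4% and 50.5% with MitoCoat. The other chromosome 17 gene reached 0.377 and 1.25 CPM per kb and the chromosome 4 gene 0.0483 and 0.267, which put 29.3% and 10.2% of genes below them with mitochondria and 41.2% and 25.0% with MitoCoat.

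MitoCoat-mRNA is the group that the choice of genes did not use. None of the 35 genes had counts in all 3 of its libraries, 4 had counts in 2, 13 in 1 and 18 in none. The share with any count was 17 of 35, against 5.91% of all genes with 0 counts in control and H2O2 (0.0492% had counts in all 3). The 35 were chosen for repeated reads and that larger set was not, so the 2 shares do not compare like with like. The highest value was 6, and 5 of the 35 had at least 3 counts in a library. In sum, the 35 genes had 20, 18 and 16 counts in the MitoCoat-mRNA libraries, against 227, 237 and 130 with mitochondria and 456, 430 and 168 with MitoCoat.

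Of these few reads, a single pair fell on the 4 genes with at least 5 counts in all 3 libraries of a treatment. They are called the 4 abundant genes by their counts within the set, not by their level among all genes. With mitochondria alone, some other genes of the set had more counts than the chromosome 4 gene. Of the 17 genes with counts after MitoCoat-mRNA, 16 were among the other 31. The 4 abundant genes summed to 0.0167 ± 0.0289 CPM with MitoCoat-mRNA, and the other 31 to 0.409 ± 0.0424 CPM (SD, n = 3). With 127468431 counts in the 3 libraries together after TMM scaling, a sum of 0 allows up to 3 read pairs, or 0.0471 CPM. Against that floor over the group, ENSRNOG00000017185 was at least 24.5-fold higher with mitochondria and at least 60.5-fold higher with MitoCoat. The treatment counts in this and the following folds chose the genes, so the folds are a description and carry no test. For ENSRNOG00000008563 the bounds were 19.4-fold and 37.1-fold, and for the chromosome 4 gene 2.29-fold and 13.1-fold. These bounds allow for counting error in MitoCoat-mRNA only. They take the treatment counts as observed, with 14 for the chromosome 4 gene with mitochondria, so they are no strict minimum. The chromosome 17 neighbour had 1 pair in MitoCoat-mRNA, and its ratio was 27.0 with mitochondria (95% exact interval from read pairs 4.36 to 1084) and 92.3 with MitoCoat (16.1 to 3665). Bounds and ratios were recomputed without each library, a step added after seeing the data. The single pair decides the ratios: without MitoCoat-mRNA library 1 they become bounds, at least 6.16-fold and at least 21.1-fold. The ratio with mitochondria was 13.2 without mitochondria library 2, and 17.7 without MitoCoat-mRNA library 2 or 3, where the ratio with MitoCoat was 60.7 and 60.6. The bounds of the other 3 genes also depend on the number of MitoCoat-mRNA libraries and were lower by over 1.5 times without library 2 or 3. Without library 3 they came to 16.1-fold and 39.7-fold for ENSRNOG00000017185, 12.8-fold and 24.4-fold for ENSRNOG00000008563, and 1.501-fold and 8.57-fold for the chromosome 4 gene. The bound of the last with mitochondria was 1.47-fold without mitochondria library 2.

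The comparison of a treatment with MitoCoat-mRNA is a test only for genes chosen through the other treatment. Of the 20 genes with counts in all 3 mitochondria libraries, 3 passed edgeR's filter on low counts in the comparison of MitoCoat with MitoCoat-mRNA and were called higher, where 1.57% of all genes tested were. They were ENSRNOG00000017185 (edgeR quasi-likelihood test, Benjamini-Hochberg adjusted p = 0.0025), ENSRNOG00000008563 (adjusted p = 0.0034) and the chromosome 17 neighbour (adjusted p = 0.015). Each was higher in 3 of 3 MitoCoat libraries than in every MitoCoat-mRNA library. The call of the neighbour was lost without MitoCoat replicate 2 (adjusted p = 0.063) or MitoCoat-mRNA replicate 2 (0.087) or 3 (0.054). The genes passed the filter through their MitoCoat counts, so the number called adds nothing to the single results. With the filter removed, 18 of the 20 could be tested and the chromosome 4 gene was also called (adjusted p = 0.0029, edgeR), with 1.45% of all genes called higher. In filtered fits it was tested only when a library was left out: its adjusted p was 0.013 without MitoCoat replicate 3 and 0.070, 0.113 and 0.077 without MitoCoat-mRNA replicate 1, 2 or 3. With the block and no filter it was 0.019. With counts divided by 2, so that a pair counts once, the neighbour did not pass the filter and the calls of ENSRNOG00000017185 and ENSRNOG00000008563 held.

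In the reverse direction, 2 of the 21 genes with counts in all 3 MitoCoat libraries passed the filter in mitochondria against MitoCoat-mRNA. Both were called higher, where 2.14% of all genes were: ENSRNOG00000008563 (edgeR adjusted p = 0.0018) and ENSRNOG00000017185 (adjusted p = 0.0099). Both have 0 counts with MitoCoat-mRNA and passed the filter through their mitochondria counts, so here too the number called adds nothing to the single results. Without the filter, 17 of the 21 could be tested and 4 were called (1.99% of all genes), with the chromosome 17 neighbour and a gene at chr7:143316920-143453546 (both adjusted p = 0.026, edgeR) in addition. With the block and no filter both were called too (adjusted p = 0.025 and 0.038, edgeR), and with the filter both were called without mitochondria replicate 3 (0.030 and 0.026). With the filter and without MitoCoat-mRNA replicate 1, 2 or 3, neither was: the adjusted p was 0.12, 0.27 and 0.19 for the neighbour and 0.16, 0.22 and 0.15 for the chromosome 7 gene. In a filtered fit of all 15 samples the neighbour had an adjusted p of 0.10. The filter and the samples changed together in these fits, and which of them moved the calls was not tested. With counts divided by 2, ENSRNOG00000017185 did not pass the filter, which left the call of ENSRNOG00000008563. The remaining genes of the set were called in neither comparison, but most were not tested with the filter. There 17 of the 20 and 19 of the 21 did not pass it, and 2 and 4 could not be tested without it.

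By treatment, 6 genes had counts in all 6 libraries of mitochondria and MitoCoat, 14 in all 3 mitochondria libraries only, and 15 in all 3 MitoCoat libraries only. Of the 20 chosen through mitochondria, 16 had at least 1 count with MitoCoat, against 8.2% of all genes with 0 counts in control and H2O2, and 8 had at least 1 count with MitoCoat-mRNA. Of the 21 chosen through MitoCoat, 15 had counts with mitochondria, against 7.12% of such genes, and 10 with MitoCoat-mRNA. Without the 4 abundant genes, these were 12 of 16 with MitoCoat and 11 of 17 with mitochondria, against 7 and 9 with MitoCoat-mRNA. In counts, the 16 genes of the mitochondria arm had 32, 39 and 19 counts with MitoCoat and 6, 4 and 6 with MitoCoat-mRNA. The 17 genes of the MitoCoat arm had 42, 46 and 24 counts with mitochondria and 12, 14 and 10 with MitoCoat-mRNA. The shares of 8.2% and 7.12% are of a set not chosen for reads, so here too like is not compared with like.

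**Figure D2:**
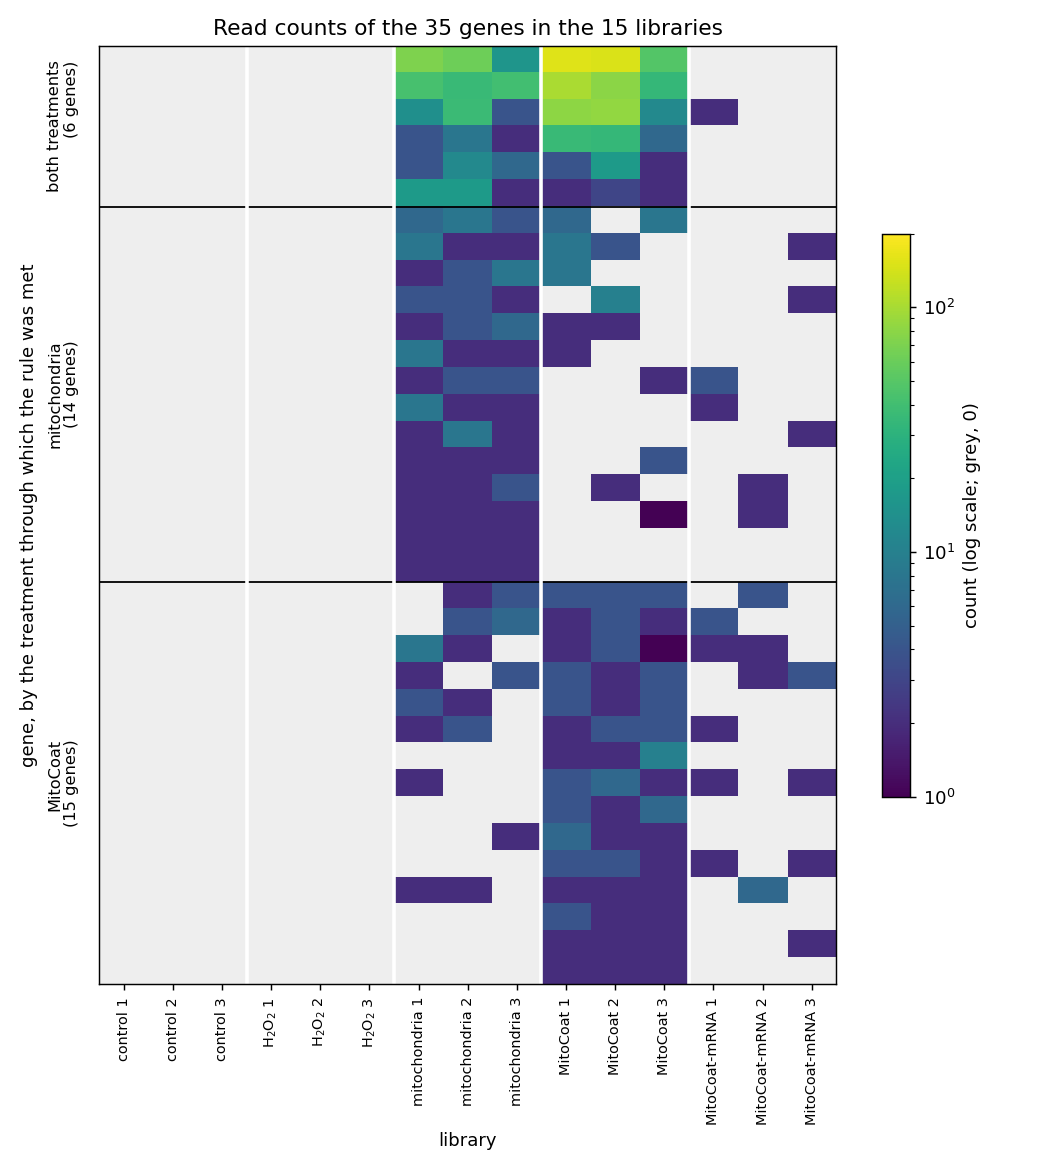
Read counts (colour, log scale, grey for 0) of the 35 genes (one per line, ordered by the treatment through which they were chosen and by total count) in the 15 libraries (x axis). The control and H2O2 libraries are 0 by the choice of genes, the 4 abundant genes lead the group found with both treatments, and most other values are 2 to 8.

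The order of the treatments is given as a description, for the abundant genes and for the rest. Summed over the 4 abundant genes, levels were 2.67 ± 1.19 CPM with mitochondria and 6.59 ± 3.54 CPM with MitoCoat (SD, n = 3), and the ratio of MitoCoat to mitochondria was 2.54, 2.60 and 1.94 for replicates 1, 2 and 3. For the other 31 genes the sums were 2.00 ± 0.519 and 1.87 ± 0.175 CPM, with ratios of 0.765, 0.945 and 1.20. The 20 genes of the intervals, measured in the same way, had 14.2 ± 8.81 and 46.998 ± 32.782 CPM and ratios of 3.79, 2.89 and 2.80. In these sums the 4 abundant genes, like the interval genes, were higher with MitoCoat, and the other 31 were at about the same level in both treatments. The choice of genes leans on these same counts. Of the 4 abundant genes, the chromosome 17 neighbour and the chromosome 4 gene reached 5 counts in all 3 libraries with MitoCoat only, which favours MitoCoat in their sum. The mean was higher with MitoCoat for 1 of the 14 genes chosen through mitochondria only and for 13 of the 15 chosen through MitoCoat only, which the rule favours and which holds the ratio of the 31 near 1.

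Across all 15731 genes tested, MitoCoat against mitochondria gave 0 calls (0.0%) by edgeR at an adjusted p under 0.05, with 779 genes (4.95%) at an unadjusted p under 0.05, and DESeq2 called 4. These fits held no replicate block, although same-numbered samples of the 2 treatments were correlated. For the genes described here that comparison is no test, since their counts in both treatments chose them, and only their values are given. Their ratios of MitoCoat to mitochondria for replicates 1, 2 and 3, on the CPM scale, were 1.95, 2.55 and 3.60 for ENSRNOG00000017185, 2.13, 2.38 and 1.02 for ENSRNOG00000008563, 5.26, 2.46 and 3.60 for the neighbour, and 8.09, 4.55 and 3.60 for the chromosome 4 gene.

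The summed counts were lowest in library 3 of both treatments. The mean of libraries 1 and 2 was 2.08-fold the level of library 3 for all 35 genes with mitochondria and 2.51-fold with MitoCoat. For the interval genes it was 4.71-fold and 5.65-fold, and for the other 31 genes 1.62-fold and 1.14-fold. Among the abundant genes the ratio ran from 1.16 for ENSRNOG00000008563 to 7.27 for the chromosome 17 neighbour with mitochondria, and from 2.54 to 6.64 for the same genes with MitoCoat. The share of even values among 1 to 20 was highest in library 3 of these 2 treatments. It was 93.8%, 93.4% and 96.8% in mitochondria libraries 1 to 3 and 94.8%, 94.8% and 97.0% in MitoCoat libraries 1 to 3. In the other groups this share was not highest in library 3. It was 96.9%, 96.3% and 95.2% with MitoCoat-mRNA, 97.1%, 97.7% and 97.2% in control and 97.3%, 97.0% and 97.2% with H2O2. Its part in the result was not tested. Gene by gene the order was less uniform. By counts, library 3 alone was the lowest for 6 of the 20 genes chosen through mitochondria, library 1 for 4 and library 2 for 1, and 9 genes had ties for the lowest. Of the 21 genes chosen through MitoCoat, library 3 alone was the lowest for 8, library 1 for 1 and library 2 for 3, with 9 ties. Set against the summed counts of the interval genes, of which they are no part, the counts of the 35 genes came to 29.1%, 29.6% and 66.3% in mitochondria libraries 1 to 3 and to 13.9%, 19.9% and 36.8% in MitoCoat libraries 1 to 3. Both sums were lowest in library 3, and that of the interval genes was lower by more.

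**Figure D3:**
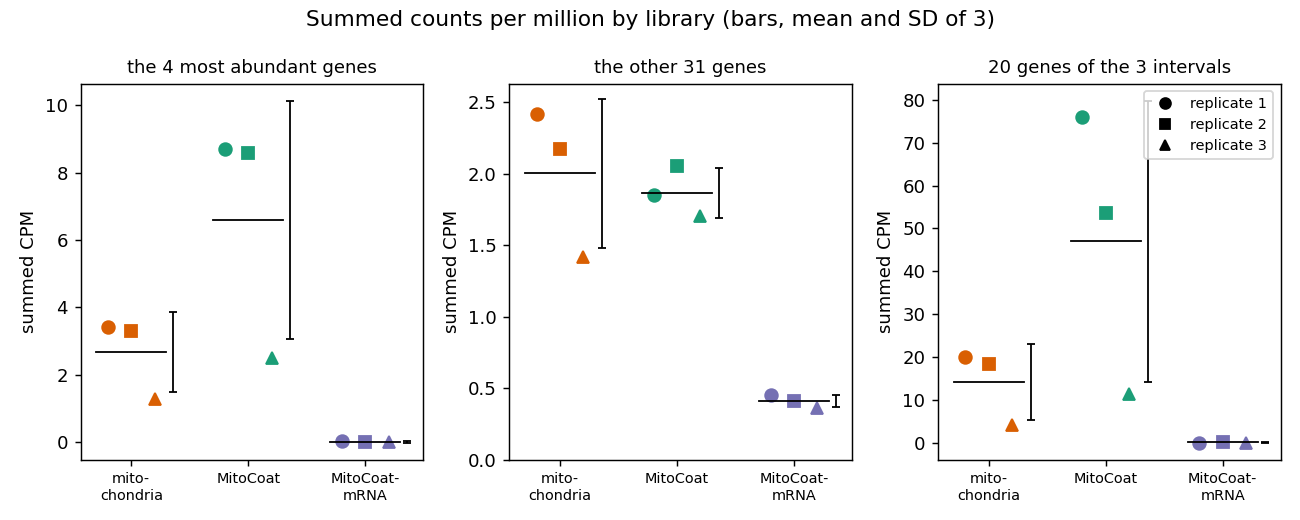
Summed level in CPM (y axes, each panel with its own scale) of the 4 abundant genes, the other 31 genes and the 20 genes of the 3 intervals in the mitochondria, MitoCoat and MitoCoat-mRNA libraries, with mean and SD of 3. The abundant genes and the interval genes are higher with MitoCoat than with mitochondria in each replicate number, whereas the other 31 overlap near 2 CPM.

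Besides the 4 abundant genes, 2 more had counts in all 6 libraries of both treatments. A 3-exon gene at chr1:168957460-168958836 (plus strand, 623 exonic bases) had 4, 12 and 6 counts with mitochondria, 4, 18 and 2 with MitoCoat and 0 with MitoCoat-mRNA. It lies within the span of a longer gene on the same strand. A gene 12.4 kb away (chr1:168971274-168972725) missed the choice by 2 counts in control library 1 and had 12, 26 and 24, then 33, 30 and 30 counts in the same treatments. A further one, 45.0 kb away (chr1:169003788-169005190), had 4, 0 and 4, then 14, 0 and 12. The latter was at 0 in control and H2O2 and missed the choice because library 2 of both treatments held no read of it.

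The gene at chr7:143316920-143453546 (minus strand, 3167 exonic bases) had 18, 18 and 2 counts with mitochondria and 2, 3 and 2 with MitoCoat, and was the only one of the 6 with a higher mean in mitochondria. Its annotation spans 9 other genes, 4 of which had counts in control libraries, so the assignment of its reads is uncertain.

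The other 29 genes were chosen through a single treatment and had few reads. Over the whole set, no library of mitochondria or MitoCoat exceeded 2 counts for 6 genes, 4 counts for 15 and 8 counts for 27. In 7 genes each of the 3 libraries of a treatment held exactly 2 counts, or 1 read pair. The choice asked for 1 count, and a gene at chr15:54700487-54702211 entered with 2, 4 and 1 counts with MitoCoat. A single-exon gene at chr3:124460730-124461332 had the most reads among the 14 chosen through mitochondria, with 6, 8 and 4 counts, and 6, 0 and 8 with MitoCoat. Among the 15 chosen through MitoCoat, a gene at chr8:128884495-128885865 had 2, 2 and 10 counts and 0 in all 6 libraries of mitochondria and MitoCoat-mRNA. In all, 4 of the 14 had 0 counts in every MitoCoat library and 6 of the 15 had 0 in every mitochondria library. At this depth, 0 in a library does not show that a transcript was absent.

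Just outside the choice stood 55 genes that had up to 2 counts in exactly 1 of the 6 control and H2O2 libraries and otherwise met it. The highest, at chr1:79680194-79708835 beyond the end of the chromosome 1 interval, had 2 counts in control library 3, 220, 195 and 40 with mitochondria, 777, 505 and 114 with MitoCoat, and 0, 2 and 0 with MitoCoat-mRNA. It had more reads than any of the 35 and the same low library 3. A single read pair in 1 control or H2O2 library thus kept out genes with more reads after treatment than those taken.

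The same condition was applied to the groups that received no mitochondria, for comparison. Control and H2O2 differ by the injury, which changed many genes in the study, so their numbers are no chance level. Outside the intervals, 20 genes had counts in all 3 mitochondria libraries and 21 in all 3 MitoCoat libraries, with 0 in 6 other libraries. With the intervals included, these are 0.335% and 0.394% of the genes with 0 counts in control and H2O2. With the same number of libraries at 0, 5 genes had counts in all 3 MitoCoat-mRNA libraries. For H2O2 (0 in control and MitoCoat-mRNA) the number was 11, and for control (0 in H2O2 and MitoCoat-mRNA) it was 18. At a minimum of 3 counts the numbers were 5, 5, 0, 1 and 3 for mitochondria, MitoCoat, MitoCoat-mRNA, H2O2 and control. At 5 counts they were 2, 4, 0, 0 and 2. At 1 count the 2 treatments thus stood near control, and above H2O2 and MitoCoat-mRNA, in the number of genes. They stood above all of these in the height of a few genes. The highest value was 72 with mitochondria and 156 with MitoCoat, against 10 with MitoCoat-mRNA, 6 with H2O2 and 12 in control.

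**Figure D4:**
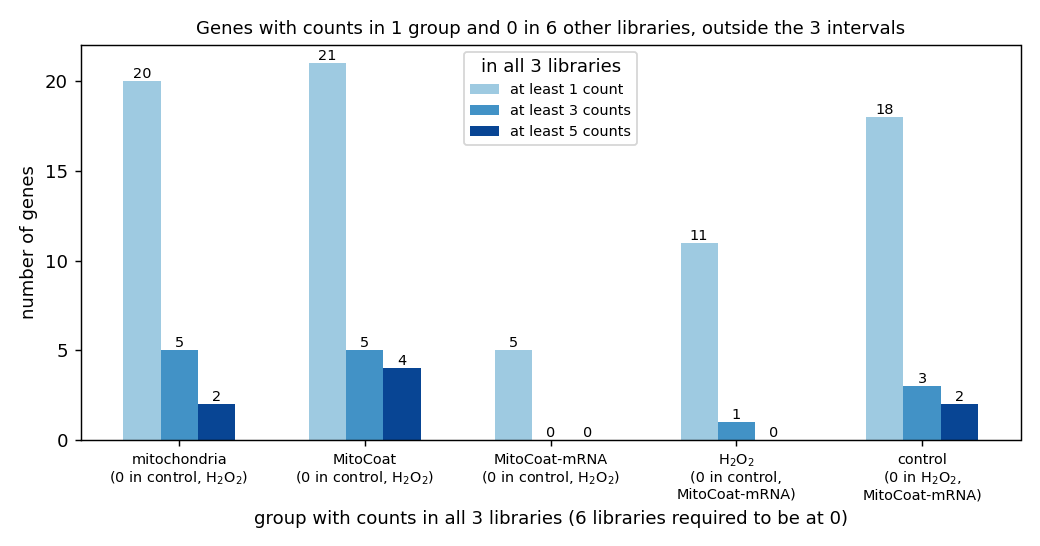
Number of genes outside the 3 intervals (y axis) with at least 1, 3 or 5 counts in all 3 libraries of a group and 0 counts in 6 other libraries, for the 5 groups (x axis). At 1 count the bars are 20 for mitochondria, 21 for MitoCoat and 18 for control, and at 5 counts they are 2, 4 and 2.

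In the annotation, the 35 genes had a median of 1148 exonic bases, and 8 of them (22.9%) had a single exon. All genes with 0 counts in control and H2O2 had a median of 402 bases and 55.3% with a single exon, and all 32552 genes 1181 bases and 29.0%. By these values the set was closer in structure to annotated genes at large than to the silent ones it came from. The choice asked for reads in all 3 libraries of a treatment, and no set matched for detection was compared. Whether the closeness follows from the choice was not tested. Chromosome 1 held 5 of the genes, chromosome X 4, and chromosomes 3, 4, 7, 8 and 17 held 3 each. Only 4 genes had another of the 35 within 1 Mb, and the chromosome 17 pair was the closest.

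Overlap with other annotated genes was counted without regard to strand. Of the 35 genes, 8 overlapped another gene, and for 6 of these the other gene had counts in control or H2O2. None of the 4 abundant genes was among them. The 4 shortest genes, of 65 to 112 bases, were all chosen through MitoCoat and all lie within the spans of genes with reads in control and H2O2. One, at chrX:21583875-21583982, had 4, 4 and 4 counts with MitoCoat, inside a gene on the same strand whose 3 control libraries held 29745 counts. Reads of such short genes and of the genes around them may be split by the counting, so these 4 are uncertain.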

How the data were processed

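For each of the 15 samples the authors deposited raw counts per gene: reads were trimmed with Trimmomatic 0.36, aligned to Rnor6.0 (Ensembl annotation) with STAR 2.5.2b and counted on exons, uniquely mapped only, with featureCounts of Subread 1.5.2. A further copy of 1 sample's counts was not used. Genes and lists were chosen with earlier results of these data known. CPM used TMM-scaled library sizes over all genes. Tests were edgeR 4.0.16 quasi-likelihood tests in R 4.3.3 (limma 3.58.1) on the 6 samples of a comparison, two-sided, with filterByExpr, TMM and Benjamini-Hochberg adjustment over all genes tested. They were tested on simulated data first. DESeq2 1.42.0, other filters, the replicate block and each sample left out in turn were alternatives. Genes with at least 5 counts in all 3 libraries of a treatment, genes called and those at the edges of the choice were named, with at most 2 identifiers printed. Lists of placental and cell type markers could not be matched to identifiers, so those checks were not made. Figures were drawn with matplotlib 3.10.9.

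Replicates 1 to 3 were checked for pairing by the correlation, over genes, of deviations from group means. For same-numbered samples it was 0.173 to 0.219 between MitoCoat and mitochondria and 0.150 to 0.264 between mitochondria and MitoCoat-mRNA, above the 0.1 required, and 0.0806 to 0.103 between MitoCoat and MitoCoat-mRNA, where the numbers were not taken to pair the samples. No 2 samples held the same values: the variance between replicates was 12.1 to 70.4 times counting error over 15 pairs.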

Additional observations from a re-analysis of the deposited data

How the results depend on the processing

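The number of genes depended on the minimum count and on each library: it was 7 at 3 counts, 4 at 5 counts, 6 when both treatments had to hold counts, 18 when MitoCoat-mRNA also had to be 0, and 46 to 82 with 1 library left out, which asks less of a gene. The largest moves, to 53 and more, came without H2O2 replicate 3 or without any 1 library of mitochondria or MitoCoat. Genes with MitoCoat-mRNA counts went from 17 to 5, and genes found in all libraries of both treatments from 6 to 3, at a minimum of 3 counts, chosen after seeing the data. Calls in mitochondria against MitoCoat-mRNA went from 2 to 4 without the filter or with the replicate block and no filter, to 1 with counts divided by 2 (ENSRNOG00000017185 was then not tested), and ranged from 2 to 4 with 1 library left out, reaching 4 without mitochondria replicate 3. In MitoCoat against MitoCoat-mRNA they ranged from 2 to 4. MitoCoat against mitochondria is no test for these genes, whose counts in both treatments chose them: its fits gave 0 calls, also with any library left out (0 to 0), and 2 with the replicate block and no filter. In the comparisons with MitoCoat-mRNA the block alone changed no call of these genes. The summed CPM of MitoCoat over mitochondria was 1.81 for all 35 genes, 2.17 for genes found with both treatments and 0.933, the reverse order, without the 4 abundant genes. It ranged from 1.496 to 2.26 with 1 library left out, lowest without mitochondria replicate 3 and highest without MitoCoat replicate 3. Why these values moved was not tested. Depth limits most of the other 31 genes, with no treated library above 18 counts, to descriptions, and the chromosome 7 gene among them was called without the filter or without mitochondria replicate 3.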

Other observations

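In 2 genes, all H2O2 and MitoCoat-mRNA libraries were at 0, some control library was not, and all 6 libraries of mitochondria and MitoCoat held at least 5 counts. Both were singled out after their values had been seen. One is the chromosome 4 gene next to the abundant one there. The other, at chr12:41340815-41363161 (plus strand, 11 exons), had 10 counts in control library 2 and 0 in the other 5 control and H2O2 libraries. It had 32, 48 and 51 counts with mitochondria and 50, 16 and 30 with MitoCoat, so that library 3 was not the lowest of either treatment.

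The encapsulated RNA was extracted from a fraction like the one that supplied the mitochondria. Of the 5 genes with 0 counts in control and H2O2 and counts in all 3 MitoCoat-mRNA libraries, 0 were among the 35 and 0 lay in the intervals. Their highest count was 10, and 4 of the 5 had counts in some library of mitochondria or MitoCoat.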
